A study of Homo sapiens with 4 samples.

Results

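The genes examined here encode RNA-binding proteins that have been reported to read, or to respond to, N6-methyladenosine (m6A), the methylation of adenosine inside mRNA. They were listed by name for this role, and no measured value enters the rule, although earlier results of these data were known when the list was made. The 10 names stand for 9 genes, because HNRNPG is a synonym of RBMX. m6A peaks were listed for 7 of the 9 genes, with 20 peaks in all, out of 20261 peaks on 10140 gene IDs in the whole list. IGF2BP1 and FXR1 had no peak.

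The peaks came from m6A-seq of poly(A) RNA from MDA-MB-231, a widely used human line of triple negative breast cancer. In this assay, mRNA is cut into fragments, the methylated fragments are pulled down with an anti-m6A antibody (IP), and IP reads are compared with those of untreated fragments (input). There were 2 IP and 2 input libraries, labelled as biological replicates, all from cells whose titles carry the word shNS and with no other agent named. The treatment field of the IP libraries names YTHDC1, but the titles and the protocol describe an anti-m6A antibody, which is how these libraries were read. The deposited list gives 1 score per peak for the whole series and no value for a single library, so no spread between replicates can be had. Consequently no difference described below could be tested against replicate error, and every comparison is a description of this list.

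Proteins that recognise m6A act in several ways. YTH domain proteins hold the methyl group directly, whereas many other binders prefer methylated transcripts through other domains. The IGF2BP proteins carry KH domains and are known for stabilising bound mRNAs in the cytoplasm. HNRNPC and RBMX (also called hnRNP G) are nuclear proteins known to bind sites that become accessible when m6A loosens a local RNA hairpin, the so-called m6A switch, and HNRNPA2B1 has been linked to splicing and to microRNA processing. FMR1 and FXR1 encode related regulators of translation, and ELAVL1 (HuR) stabilises mRNAs with AU-rich elements. m6A-seq reports the methylation of the transcripts of these genes and not the binding of their proteins to other RNAs.

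In IGF2BP2, HNRNPA2B1 and HNRNPC a peak covered the RefSeq transcription start. Reference sequence was at hand beneath these peaks and beneath part of a further HNRNPA2B1 peak upstream of the start, and short windows of it are shown, taken from RefSeq on GRCh38.p14 and written 5′ to 3′ on the strand of the gene. Capitals mark RRACH, the usual sequence context of m6A, searched on the transcribed strand only as NNACN with a purine at both leading positions and any base but G at the last. Positions count from 1 at the first RefSeq base, and positions upstream of it are negative.
HNRNPC, word at position 6, chr14:21269421-21269449, minus strand: cggcggcagaggAGACTcgggggccattt
HNRNPC, word at position 36, chr14:21269393-21269421, minus strand: ttgtgaagagacgaAGACTgagcggttgt
HNRNPC, word at position -24, chr14:21269450-21269478, minus strand: ggaatggggcggGGACTaggccttcgcct
HNRNPA2B1, word at position -223, chr7:26200959-26200987, minus strand: aagaggtagtaactagcaGGACTctagcc
HNRNPA2B1, first transcribed bases, no word, chr7:26200718-26200746, minus strand: agtagcagcagcgccgggtcccgtgcgga
IGF2BP2, first transcribed bases, no word, chr3:185825014-185825042, minus strand: gaggagagacgagggcagcggaggaggcg

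The first 50 transcribed bases held 2 RRACH words in HNRNPC and none in HNRNPA2B1 and IGF2BP2. Among all 35116 RefSeq promoter entries, 40.8% had at least 1 such word in these 50 bases. The windows cover only parts of the peaks. In the shared stretch, the HNRNPC peak covered 102 bases with 3 words and the HNRNPA2B1 peak at the start covered 113 bases with none. That of IGF2BP2 covered 64 bases with none. The HNRNPA2B1 word at position -223 lay in a separate, weaker peak upstream of the RefSeq start, of which 38 bases were read. A word in a peak does not show that its adenosine was methylated.

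The list is uneven between gene strands, and this bears on every count given here. Of protein-coding genes with a strand in RefSeq, 57.5% of minus-strand genes (4310 of 7498) and 30.3% of plus-strand genes (2369 of 7820) had a peak. All 6 binder genes that had a peak on the minus strand and the single one on the plus strand, FMR1, were therefore set against genes of their own strand. FXR1, on the plus strand, had no listed peak of any gene ID within its RefSeq span (chromosome 3, 180912670 to 180982753). The same was true of IGF2BP1 (chromosome 17, 48996558 to 49056145), whose strand the tables used here do not give. Expression was not listed, and the absence of a peak can mark a transcript that is unmethylated, weakly expressed or below detection. The list cannot tell these apart.

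Each score was taken to be the p-value that the authors' peak caller gave for IP over input. The file leaves unsaid if an FDR was written in its place. A smaller score is called stronger here, and −log10 of the score is given where genes are ranked. The score depends on read depth and on the level of the transcript as well as on enrichment, and neither was listed. Its median over all peaks was 5.2e-08, and 13 of the 20 binder peaks were at or under it. Of these 20, 19 were on the minus strand, where the median −log10 of the score over all peaks was 9.49 (4.85 on the plus strand). Most minus-strand peaks in the whole list were thus also at or under the list median. Of all minus-strand peaks, 51.7% were as strong as the HNRNPC peak at 1.6e-09, which was under the list median. For the IGF2BP3 peak at 8.9e-08, which was weaker than the list median, the share was 57.6%. The share at the list median itself was not computed, so the 13 are not read as a trait of these genes. The strongest score was at or under this median in all 6 minus-strand binder genes with a peak, where the share over all 6624 minus-strand genes with a peak was 70.7%. FMR1 did not reach it, as against 42.1% of the 3516 plus-strand genes with a peak that did.

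**Figure D1:**
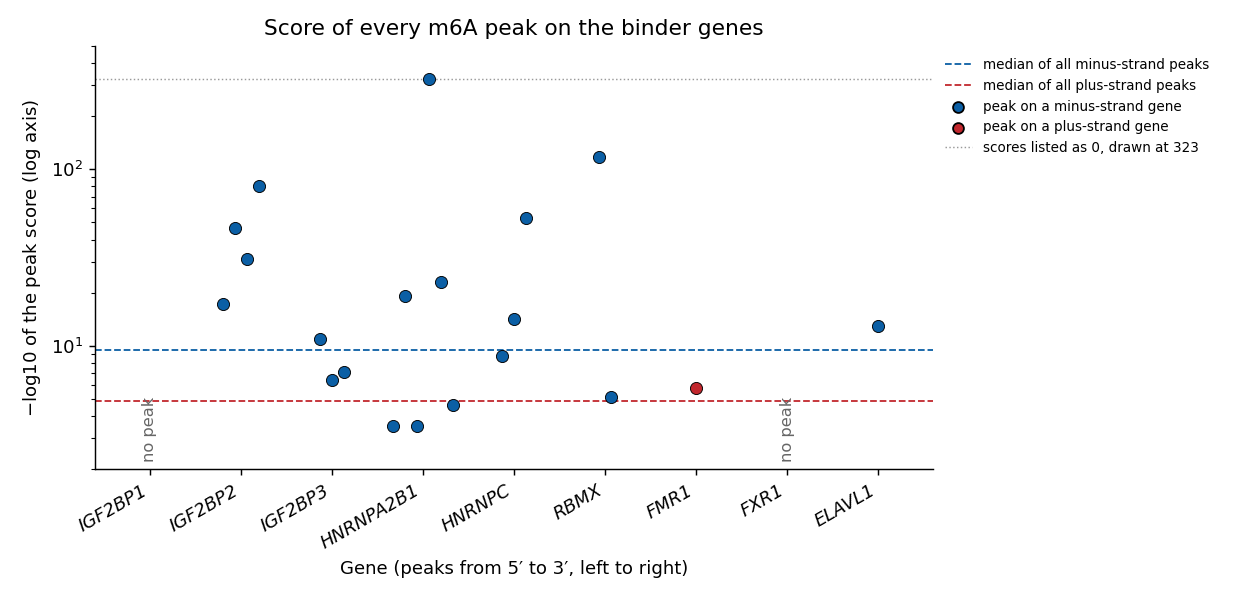
Each point is 1 m6A peak, placed by gene and from 5′ to 3′ within a gene; the vertical axis is −log10 of the score on a log scale, colours give the gene strand, dashed lines give the medians over all peaks of a strand (9.49 for minus, 4.85 for plus), and no error can be drawn because each peak has 1 value. All 4 IGF2BP2 peaks lie above the minus-strand median, whereas HNRNPA2B1 spans the widest range, from 3.5 to the value of 323 that stands for a score listed as 0.

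Among the IGF2BP genes, methylation peaks were listed for IGF2BP2 and IGF2BP3 but not for IGF2BP1. IGF2BP2 (ENSG00000073792, chromosome 3, minus strand) had 4 peaks with 1324 spliced bases. Of minus-strand genes with a peak, 15.2% had as many peaks and 25.3% had as strong a best score. In IGF2BP2, 3 of the peaks stood close together at the 3′ end of the gene, within 1829 bases that contained 86.3% of its peak bases.

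The 3′-most IGF2BP2 peak, 185643739 to 185644099, was 361 bases long and was the strongest of the gene, with a score of 2.5e-81. It stopped 609 bases short of the RefSeq 3′ end. The next peak towards the 5′ end, 185644368 to 185644698, was 331 bases long with a score of 1e-31. The third, 185645117 to 185645567, was 451 bases long with a score of 3.2e-47. Gaps of 268 and 418 bases separated these 3 peaks. The remaining peak, 185824876 to 185825056, was 181 bases long with a score of 6.3e-18. It covered the RefSeq start, extending 14 bases upstream of it, and was the weakest of the gene. No peak was listed in the 179308 bases between the 5′ peak and the 3′ group, a distance that includes introns.

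IGF2BP3 (ENSG00000136231, chromosome 7, minus strand) had 3 peaks with 872 spliced bases and a different arrangement. Its strongest peak was the 5′ one, 23469952 to 23470192, with a score of 1.3e-11 and 241 bases, beginning 299 bases inside the span. A peak of 510 bases in the gene body, 23414783 to 23415292, had a score of 3.8e-07. The 3′ peak, 23312215 to 23312335, had a score of 8.9e-08 over 121 bases and stopped 2006 bases short of the RefSeq 3′ end. Both of the latter were weaker than the list median. Of minus-strand genes with a peak, 62.5% had as strong a best score as IGF2BP3. Thus the paralogs differed in where the strongest peak lay, at the 3′ end in IGF2BP2 and at the 5′ end in IGF2BP3, and −log10 of the best score was 80.6 in the former and 10.9 in the latter. With 1 score per peak, this difference was not tested.

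**Figure D2:**
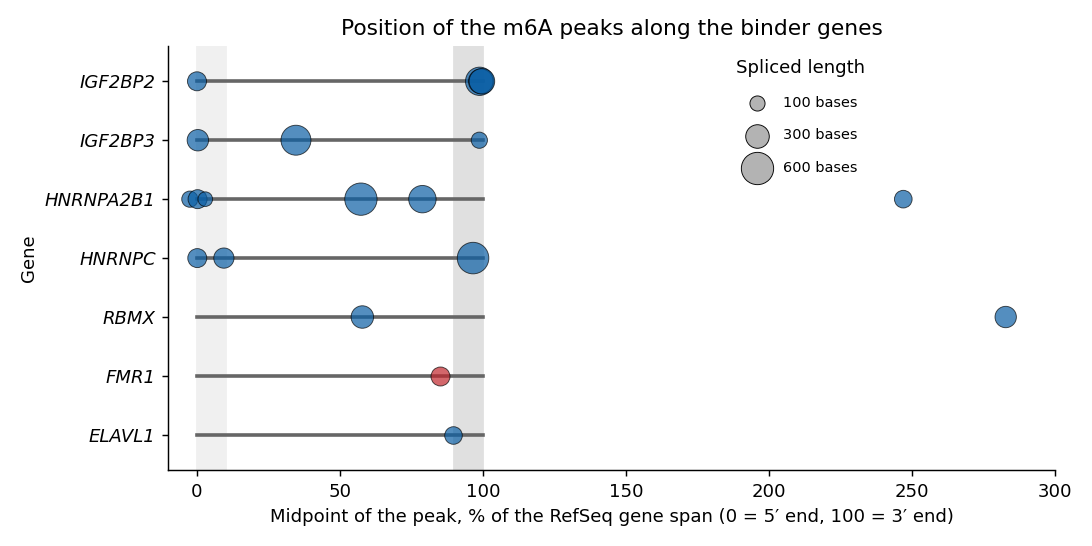
Each circle is 1 peak, drawn at its midpoint as a percentage of the RefSeq span of its gene (horizontal axis, introns included; 0 is the 5′ end and 100 the 3′ end), with area growing with spliced length; blue marks minus-strand and red plus-strand genes, and grey bands mark the first and the final 10% of the span. The 3 IGF2BP2 circles near 100 overlap at this scale, and 1 peak each of HNRNPA2B1 and RBMX lies far beyond the 3′ end.

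HNRNPA2B1 (ENSG00000122566, chromosome 7, minus strand) had the most listed peaks of the binder genes, 6 with 1566 spliced bases, although its span of 10820 bases is the shortest among them. Of these peaks, 2 lay wholly outside that span, and without them the gene would not have more peaks than IGF2BP2. With all 6 counted, 3.91% of minus-strand genes with a peak had as many. Its strongest peak was listed at 0, as were the best peaks of 389 minus-strand genes (5.87%), and these cannot be ordered among themselves. This peak ran over 4058 genomic bases, 26192519 to 26196576, in 6 blocks of 20, 81, 198, 120, 123 and 59 bases from 5′ to 3′, which gives 601 spliced bases. Peaks in 6 or more blocks made up 0.171% of minus-strand peaks (25 of 14648). The next peak, 26192009 to 26192429, had a score of 1.3e-23 over 421 bases and began 89 bases downstream of the multi-block peak. Together these 2 neighbours held 65.3% of the peak bases of the gene.

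Another group of 3 HNRNPA2B1 peaks lay within 691 bases at the 5′ end. The middle one covered the RefSeq start, 26200629 to 26200809, and was the strongest of the group, with a score of 6.3e-20 over 181 bases. The peaks on either side were weak. The one inside the gene, 26200389 to 26200479, had a score of 3e-04 over 91 bases, and the upstream one, 26200959 to 26201079, had a score of 0.00031 over 121 bases. The upstream peak lay wholly outside the RefSeq span, 213 bases from it. It was 364 bases short of the RefSeq start of CBX3, the heterochromatin protein gene transcribed in the opposite direction, which had no peak. The sixth peak, 26173957 to 26174107, had a score of 2.7e-05 over 151 bases. It was 15820 bases beyond the 3′ end of the RefSeq span and inside that of NFE2L3, a plus-strand gene whose only peak (1e-19) lay 11357 bases away. The list assigns it to HNRNPA2B1, and which transcript it belongs to was not tested.

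HNRNPC (ENSG00000092199, chromosome 14, minus strand) had 3 peaks with 962 spliced bases, and all of them were at or under the list median. The 3′ peak, 21210993 to 21211562, was the strongest, with a score of 1.3e-53 over 570 bases, and stopped 1846 bases short of the 3′ end. The second peak, 21263662 to 21263872, had a score of 6.3e-15 over 211 bases. The 5′ peak, 21269314 to 21269494, had a score of 1.6e-09 over 181 bases and reached 52 bases upstream of the RefSeq start; its sequence, with the 2 AGACT words after the start, is shown above. The scores thus grew stronger from the 5′ to the 3′ peak. A best score as strong was reached by 32.9% of minus-strand genes with a peak.

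RBMX (ENSG00000147274, chromosome X, minus strand) had 2 peaks of very different strength. The stronger, 136873921 to 136874190, had a score of 1e-118 over 270 bases and lay in the middle of the gene, at 57.8% of its span. Only 9.97% of minus-strand peaks were as strong, and 18.6% of minus-strand genes had as strong a best score. The weaker, 136848004 to 136848243, had a score of 7.6e-06 over 240 bases. It lay 20949 bases beyond the 3′ end of the RefSeq span, where RefSeq places the pseudogene RAB28P5, which had no peak of its own. RBMXL1, an intronless copy of RBMX on another chromosome, had 2 peaks with a best score of 3.2e-81. The copies are close in sequence and the alignment allowed several places per read, so the division of reads between RBMX and RBMXL1 is uncertain and was not tested.

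FMR1 (ENSG00000102081, chromosome X, plus strand) had 1 peak, 147944925 to 147945587, in blocks of 127 and 54 bases. Its score was 1.7e-06, and 51.9% of plus-strand genes with a peak were as strong. It was therefore near the middle of its strand, although it was the weakest of the 7 genes with a peak. The peak was centred at 85.0% of the span and stopped 5538 bases short of the 3′ end. FXR1, its paralog, had none, and the third member of the family, FXR2 on the minus strand, had 2 with a best score of 4e-18. The weaker FXR2 peak (7.2e-05) shared 34 of its 90 bases with a peak of MPDU1 on the opposite strand.

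ELAVL1 (ENSG00000066044, chromosome 19, minus strand) had 1 peak, 7963443 to 7963592, with a score of 1.3e-13 over 150 bases. A total as large was covered in 89.3% of minus-strand genes with a peak, and 59.1% had as strong a best score. The peak was centred at 89.5% of the span and stopped 4870 bases short of the 3′ end. Of the neuronal relatives, ELAVL2 had 1 peak (1.2e-05), and ELAVL3 and ELAVL4 had none.

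**Figure D3:**
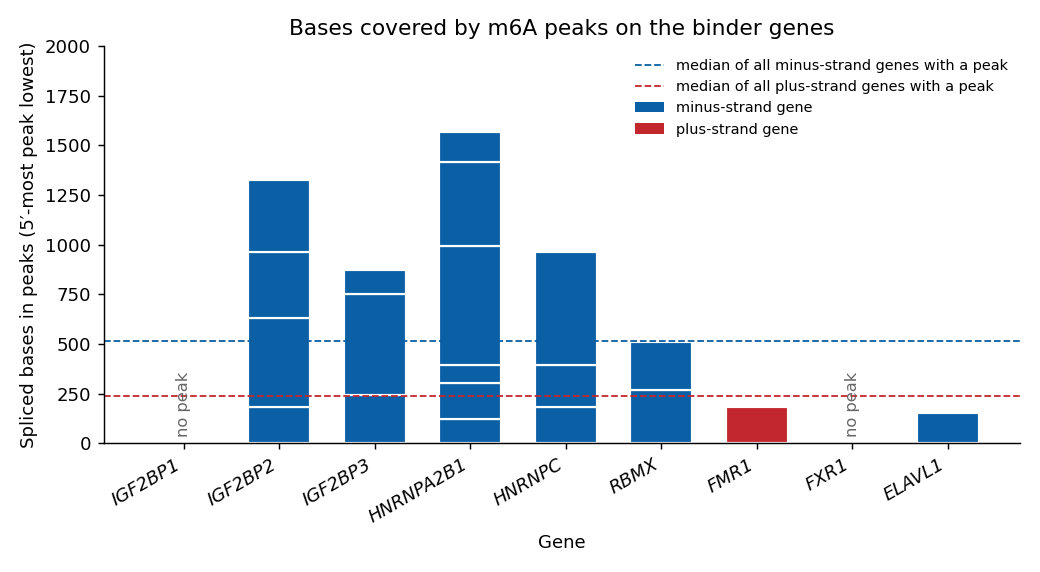
Bars give the spliced bases covered by m6A peaks on each binder gene, stacked by peak with the 5′-most peak at the bottom; blue bars are minus-strand genes, the red bar is a plus-strand gene, and dashed lines give the medians over all genes with a peak on each strand (513 bases for minus, 240 for plus). IGF2BP2, IGF2BP3, HNRNPA2B1 and HNRNPC exceed the minus-strand median, RBMX (510 bases) nearly equals it, and ELAVL1 (150) and FMR1 (181) fall below that of their own strand.

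Taking the 6 minus-strand binder genes together, the median number of peaks was 3 and the median of covered bases was 917. Over all 6624 minus-strand genes with a peak, these medians were 2 and 513. The median −log10 of the best score was 66.7, against 21.4 over all minus-strand genes with a peak, where the quartiles were 6.1 and 81.6. By best score the genes ranked in the order HNRNPA2B1, RBMX, IGF2BP2, HNRNPC, ELAVL1, IGF2BP3 and FMR1. The first 4 of these were stronger than the median minus-strand gene, while ELAVL1 and IGF2BP3 were weaker. Whether neighbours in this order differ beyond replicate error could not be determined.

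**Figure D4:**
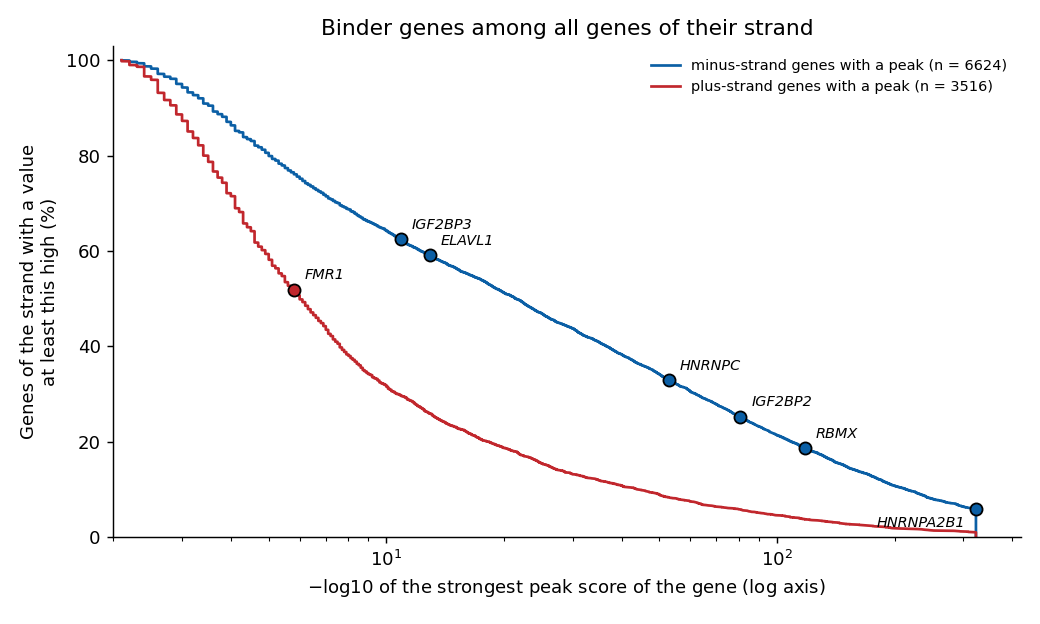
Lines show, for each value of −log10 of the best peak score of a gene (horizontal axis, log scale), the percentage of genes on that strand that reach it, for 6624 minus-strand genes (blue) and 3516 plus-strand genes (red); points mark the binder genes. HNRNPA2B1 lies at 5.87%, RBMX at 18.6%, IGF2BP2 at 25.3%, HNRNPC at 32.9%, ELAVL1 at 59.1% and IGF2BP3 at 62.5% on the blue line, and FMR1 at 51.9% on the red line.

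Peak position was compared with other minus-strand genes using peaks that lay wholly inside the RefSeq span. Of 13 such binder peaks, 5 had their midpoint in the final 10% of the span, where the share over all minus-strand peaks of protein-coding genes was 37.8% (4360 of 11541). These 5 peaks came from 3 genes, IGF2BP2, IGF2BP3 and HNRNPC. A further 3 lay in the first 10%, in IGF2BP3, HNRNPA2B1 and HNRNPC, where the share over all was 12.1%. The other 5 lay in between. These counts leave out the 3 peaks that crossed the RefSeq start, in IGF2BP2, HNRNPA2B1 and HNRNPC, and the 3 outside the span. The shares over all minus-strand peaks were taken under the same limit, so neither they nor these counts describe peaks that cross the start. Of the minus-strand peaks of protein-coding genes, 1.54% had no base inside the span of their gene, and among the binder genes 3 of 19 did, 2 in HNRNPA2B1 and 1 in RBMX.

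None of the 20 binder peaks overlapped a peak on the opposite strand or a peak of another gene on the same strand. Over all minus-strand peaks, 7.07% overlapped one on the opposite strand, and 997 of 5613 plus-strand peaks did. The share over all peaks that overlap another gene on the same strand is not given here. With so few binder peaks, the absence of overlaps is not read as a trait of these genes. Of the 20 peaks, 18 lay in 1 block and 2 in several, where 18.8% of all minus-strand and 15.4% of all plus-strand peaks had 2 or more blocks. Lengths ran from 91 to 601 bases with a median of 226.

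Closely related genes were examined next. Of 24 further HNRNP genes and relatives, such as PTBP1 and the PCBP genes, 19 had a peak. On the minus strand, 11 of 12 had one, where 57.5% of protein-coding minus-strand genes did, and 9 of these 11 had a best score at or under the list median, where 70.7% of minus-strand genes with a peak did. On the plus strand, 8 of 11 had one (30.3% over all) and 5 of these 8 reached the median (42.1% over all). The strand of HNRNPA1, which had no peak, was not in the table used. The median −log10 of the best score was 124 on the minus strand and 15.8 on the plus strand, where all genes with a peak had 21.4 and 6 respectively.

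The best peaks of HNRNPA0, HNRNPF and HNRNPU were listed at 0, and HNRNPU (also called SAF-A, a nuclear matrix protein) had 6 listed peaks, as many as HNRNPA2B1. A weak HNRNPU peak (9.3e-06) shared 144 of its 151 bases with a plus-strand peak of COX20 (8.5e-06), so its gene is uncertain. By best score, HNRNPUL2 followed these genes with a −log10 of 269. HNRNPM, a splicing factor gene on the plus strand, had a best score of 1e-239, but that peak shared 219 of its 300 bases with a minus-strand peak of ENSG00000279827 with a score of 1e-237, so its gene cannot be told from the list. The weaker of the 2 PCBP1 peaks (7.9e-23) shared 211 of its 299 bases with a minus-strand peak of PCBP1-AS1 (2.5e-20), so its gene is uncertain too. At the other end, HNRNPH1 (0.00011) and HNRNPL (4.5e-05) on the minus strand had 1 weak peak each. On the plus strand, PCBP2 (0.0011), HNRNPA3 (0.00017) and HNRNPH3 (0.00014) had 1 still weaker peak each. HNRNPR, PTBP1, RALY and HNRNPA1L2 had none under their gene IDs.

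**Figure D5:**
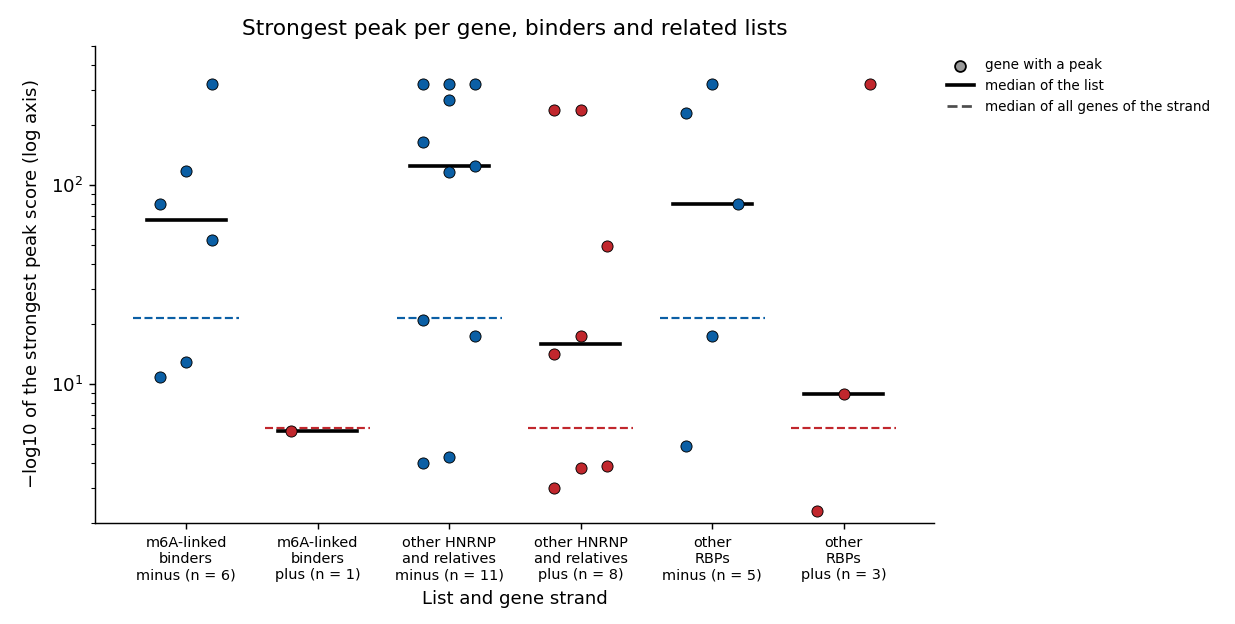
Points show −log10 of the best peak score (vertical axis, log scale) for each gene with a peak in 3 lists, the m6A-linked binders, the other HNRNP genes and relatives, and other RNA-binding proteins (RBPs), divided by gene strand; black bars are list medians and dashed lines the medians of all genes with a peak on the strand (21.4 for minus, 6 for plus). In each minus-strand list, points lie on both sides of the dashed line; the genes without a peak are not drawn.

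Among 17 other RNA-binding proteins linked to m6A or to the genes above, 5 of 6 on the minus strand and 3 of 9 on the plus strand had a peak under their gene ID, beside 57.5% and 30.3% of protein-coding genes of these strands. Of the 5 and the 3, 4 and 2 reached the list median, beside 70.7% and 42.1% of genes with a peak. The strands of ELAVL3 and PABPC1, which had no peak, were not in the table used. By gene ID, the plus-strand count with a peak was thus near the share over all genes, with PRRC2B, described below, counted as having none. EIF3A, a subunit of the translation initiation factor eIF3, had 2 peaks with 2308 bases and a best score listed at 0. PRRC2C was the strongest on the plus strand, with 6 peaks and a best score listed at 0, which 0.995% of plus-strand genes with a peak reached. G3BP2, a stress granule gene, had 1 peak (1e-231) whereas its paralog G3BP1 had none. PRRC2A, SND1, LRPPRC, CAPRIN1 and PABPC1 also had none. PRRC2B had none under the ID in the name table, but 7 plus-strand peaks within its RefSeq span, the strongest with a score of 1e-12, were listed under ENSG00000130723, an ID without a symbol in that table.

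For the binder genes with 2 or more peaks, the gene of the same strand with the same number of peaks and the nearest best score was identified, ties going to the nearest number of covered bases. HNRNPC (962 bases) was most like MEGF9 (963 bases), both with 3 peaks and a best score of 1.3e-53. IGF2BP3 was most like SLC19A3, with 3 peaks and 842 bases, and RBMX most like MRPS5, with 2 peaks and 752 bases, with scores equal to theirs. For IGF2BP2 the nearest was COA1, with 4 peaks, 1894 bases and a best score of 6.3e-81. The likeness rests on 1 list and not on a pattern across samples.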

How the data were processed

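m6A-seq libraries (2 input, 2 IP) from MDA-MB-231 cells were grouped by their titles. Reads were mapped by the authors to GENCODE v33 transcripts (hg38) using STAR, with several alignments per read allowed. Peaks were then called by the authors with exomePeak at default parameters and filtered on fold enrichment and FDR. How replicates entered the peak calling is not given in the sources used here, and 1 list was deposited for the series. The deposited score was taken as the p-value of a peak, although an FDR is possible, and the block number, strand and positions were read from the same list. Scores listed as 0 were ranked together at a −log10 of 323. Read counts and depth per library were not listed, so no interval was computed.

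Symbols were matched by Ensembl ID without version (10103 of 10140 gene IDs). Spans, strands and start sequences came from RefSeq on GRCh38.p14, and 7 of the 9 genes had a promoter entry. Positions are written from 1. Exons, UTRs and coding sequence were not analysed here, since no genome or exon annotation was used, and protein sequences were not used. Overlap required 1 shared base of blocks. Values were computed in Python 3.11.15 with numpy 2.4.6 and scipy 1.17.1, and the functions were tested on simulated data.

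The genes, gene lists and settings were chosen with earlier results of these data known. Named genes were all binder genes, genes with an opposite-strand peak over a binder peak (there were none), the related lists and, for each binder gene with 2 or more peaks, the most similar gene (that of HNRNPA2B1 is not reported here). The related lists were to be given by counts with up to 5 genes each in full. The strand partners of HNRNPM, HNRNPU, PCBP1 and FXR2 peaks and the neighbours CBX3, NFE2L3 and RAB28P5 were named after their values were seen. No test was run, since no replicate spread was available.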

Additional observations from a re-analysis of the deposited data

How the results depend on the processing

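Of the 20 binder peaks, 13 remained when peaks above the list median were left out, and 6 of the 7 genes kept a peak. Chromosome names come back further down the list, and the peaks before the first such return are called its first part. All 20 peaks on 7 genes were listed after overlapping peaks of a gene had been merged, without peaks that overlap one on the opposite strand, and in the first part of the list alone. Leaving out opposite-strand overlaps could not change this count, since no binder peak had one. In that setting, the share of plus-strand genes as strong as FMR1 moved from 51.9% to 45.8%. A limit to peaks that touch the RefSeq span, chosen after seeing the data, left 17 peaks. The median, over binder genes, of the share of same-strand genes with as strong a best score was 32.9%. It was 41.2% among peaks at or under the median, 38.8% against protein-coding genes only and 24.4% against genes of both strands. The last 2 settings change only the genes compared against, whereas the first also leaves out FMR1, so that its median is over 6 genes. By the share of both strands FMR1 moved from 51.9% to 68.0%. Of the 13 minus-strand binder peaks inside the span, 5 lay in the final 10% of it and 6 in the final 20%. Over all minus-strand peaks of protein-coding genes the share was 37.8% for the final 10%, and none is given for the final 20%. RRACH and DRACH, which also admits T as its leading base, gave the same number of words in 3 of the 4 peak parts read. In the HNRNPA2B1 upstream peak DRACH gave 2 in place of 1. No paired analysis was possible because the deposited list has a single score per peak and none for any of the 4 libraries, and for the same reason no replicate could be blocked or left out. At an unknown depth, the lack of a peak in IGF2BP1 and FXR1 cannot be read as a lack of m6A.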
